A study of Mus musculus with 12 samples.

Results

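The genes described here are 10 genes of the liver's collagen scaffold and of the stellate cells that build much of it. They are the fibrillar collagen chains Col1a1, Col1a2, Col3a1 and Col5a2, the basement membrane chains Col4a1, Col4a2 and Col4a5, the small proteoglycans Lum and Dcn, and the protease inhibitor gene Timp1. They were picked as a list of symbols, with earlier results of these data known, and every probe set annotated with one of these symbols alone was taken. All 10 were measured, by 16 of the array's 22626 probe sets, among 12393 genes that have a probe set with a single symbol.

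The RNA came from whole livers of female mice of the C57BL/6 strain, between 8 and 12 weeks old, and was hybridised to 12 Affymetrix Mouse430A arrays, 3 per group. The 4 groups were mice with deletion of histone deacetylase HDAC6 (HDAC6-/-), mice with deletion of HDAC9 (HDAC9-/-), wild-type mice given a high fat diet after weaning (60% of energy from fat) and wild-type mice on regular chow (25%). The labels name no allele, promoter or cell type for either deletion, and they give no diet for the knockouts, so an effect of genotype and one of diet cannot be told apart where a knockout is set against a wild-type group. Replicates are numbered, but nothing says that they are separate mice, and the spread behind each p-value may therefore be partly technical.

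Collagen fibrils are triple helices of alpha chains, and type I and type III fibrils make up most of the stroma around portal tracts and central veins. Type IV chains form instead the sheet-like network of basement membranes, which the normal liver has around vessels and bile ducts and lacks as a continuous layer along the sinusoids. Hepatic stellate cells, which store vitamin A in the healthy liver, become myofibroblasts after injury and then make fibrillar collagen together with TIMP1, which restrains the proteases that would degrade it. Transforming growth factor beta and platelet-derived growth factor are the best known signals for this change.

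All levels below are log2 robust multi-array average values, so a difference of 1 is a doubling. A value describes one probe set, and probes hybridise unequally. Levels of different genes are therefore set side by side only as a rough guide to brightness, and in summed levels of lists. A gene counts as changed where limma's moderated test gave an adjusted p under 0.05 over all 12393 genes. The arrays had medians between 5.78 and 5.86 and pairwise correlations of 0.987 to 0.997, and their number is what limits the precision: the median standard error of a difference was 0.124. Hdac6 averaged 6.28 ± 0.198 in HDAC6 knockout livers and 7.91 ± 0.0598 in chow livers (SD, n = 3 each), while Hdac9 stayed between 4.04 and 4.53 on all 12 arrays, so the probe set gives no check of the HDAC9 deletion. The defining markers of the labelled tissue were present: the hepatocyte gene Alb was at least 14.16 on every array, and 10 of 12 hepatocyte markers were measured, with a summed level of 16.66 to 16.73. Among markers of stellate cells, Reln was at least 9, Des at least 6.32 and Acta2, the muscle actin of myofibroblasts, at least 5.69. Lrat lay between 4.67 and 6.15 and Gfap between 4.56 and 5.04. Genes that a liver should lack, described with Timp1 below, had means up to 6.93. Of these stellate markers only Reln lay above that on every array. One array stands furthest apart in its tissue content: replicate 2 of the HDAC9 knockouts carried transcripts of the exocrine pancreas. Its median deviation over 16 pancreas markers was 3.62. Replicate 1 of that group read higher to a smaller degree (median deviation 0.11), with Ctrb1 at 5.97 and Cpb1 at 4.2. The arrays other than these had 4.4 to 4.98 and 2.86 to 3.3. Replicate 2 also had Adipoq at 4.96, against 2.62 to 3.05 elsewhere, while its median deviation over 8 adipocyte markers was 0.01. In whole liver, fewer cells of a type and less RNA per cell cannot be told apart.

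Across the 4 groups the matrix genes were close to level, and a single one passed the test in a single comparison. Col4a5, a network collagen chain, was 1.83-fold lower in high-fat livers than in HDAC6 knockout livers. No member passed in HDAC6 knockout against chow livers, where 0.0161% of all genes did. None passed in HDAC9 knockout against chow livers (0.0968% of all genes) or in high-fat against chow livers (0.29%). Nor did any pass in HDAC9 against HDAC6 knockout livers (0.00807%) or in high-fat against HDAC9 knockout livers (0.436%). In high-fat against HDAC6 knockout livers 1 of 10 passed, against 0.145% of all genes. By limma's F test across all 4 groups, 0 of 10 passed, against 0.331% of all genes. Before adjustment, a p under 0.05 was reached by 1 member in HDAC6 knockout, 0 in HDAC9 knockout and 2 in high-fat livers against chow, and by 5.77%, 6.08% and 8.48% of all genes in the same 3 comparisons.

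**Figure D1:**
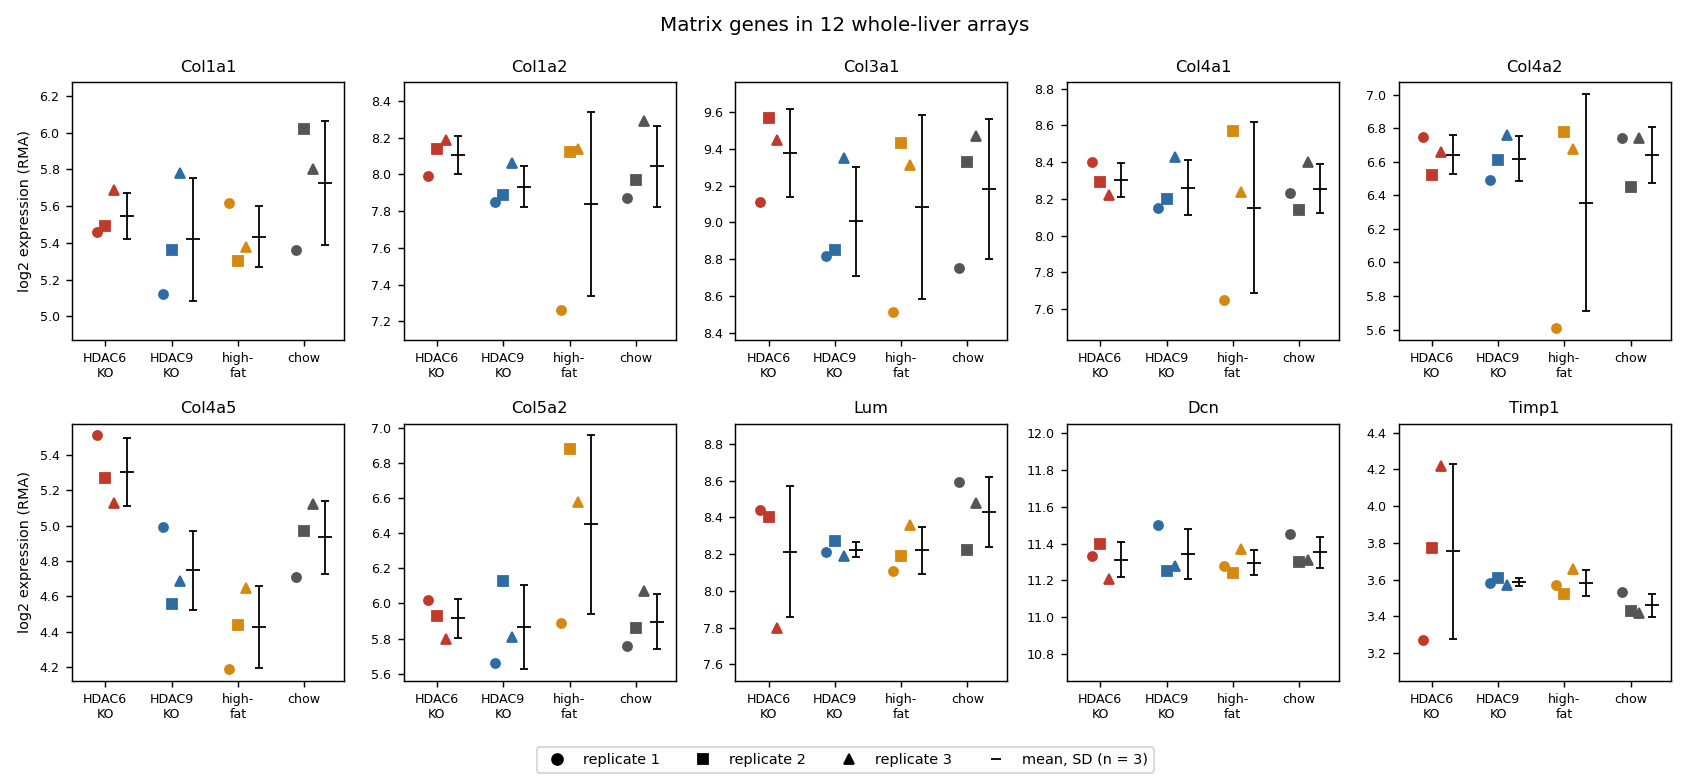
Level of each of the 10 matrix genes on each array (y axis, log2 values, a separate range per panel), by group from HDAC6 knockout on the left to chow on the right. Points are arrays, bars are group means with SD over 3 arrays, and the groups overlap in most panels, with Col4a5 highest in HDAC6 knockouts and lowest in high-fat livers.

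Col1a1 and Col1a2 encode the chains of type I collagen, the main fibrillar collagen of scar tissue. Col1a1 (chromosome 11) stood at 5.46, 5.49 and 5.69 in HDAC6 knockout livers, at 5.12, 5.36 and 5.78 in HDAC9 knockout livers, at 5.62, 5.30 and 5.38 in high-fat livers and at 5.36, 6.02 and 5.80 in chow livers. The chow and HDAC9 knockout arrays spread about equally (SD 0.339 and 0.335). Chow holds the highest value, and every other group overlaps chow. Against chow, Col1a1 differed by -0.18 in HDAC6 knockout, -0.30 in HDAC9 knockout and -0.29 in high-fat livers (SE 0.183, limma adjusted p = 0.93, 0.843 and 0.715). A second probe set of Col1a1 stayed between 3.92 and 4.36.

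Col1a2 (chromosome 6) was at 7.99, 8.14 and 8.19 in HDAC6 knockout livers, at 7.85, 7.89 and 8.06 in HDAC9 knockout livers, at 7.26, 8.12 and 8.14 in high-fat livers and at 7.87, 7.97 and 8.29 in chow livers. Replicate 1 of the high-fat group is the lowest array of the series, with the next at 7.85, and the other two high-fat arrays lie within the range of chow. The differences from chow were 0.06, -0.11 and -0.20 (SE 0.192), none past the test. A second probe set of Col1a2 had the same lowest array, at 4.55, with the other 11 between 4.74 and 5.56.

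Col3a1 (chromosome 1) encodes the single chain of type III collagen, which shares fibrils with type I. Its levels were 9.11, 9.57 and 9.45 in HDAC6 knockout livers, 8.82, 8.85 and 9.35 in HDAC9 knockout livers, 8.51, 9.43 and 9.31 in high-fat livers and 8.75, 9.33 and 9.47 in chow livers. Again replicate 1 of the high-fat group was the lowest of the 12, and each group reaches into the range of the others. Its widest difference was -0.38, for HDAC9 against HDAC6 knockout livers (SE 0.237, 95% interval -0.89 to 0.13, adjusted p = 1), so that a fall and a small rise both lie inside the interval. A second probe set of Col3a1 stayed between 3.97 and 4.63, and its lowest array was chow replicate 1. Its high-fat mean, 4.53, was above its chow mean of 4.31, the other way round from the first probe set. This second probe set is dim, near the upper quartile of 4.22 of the genes a liver should lack, described with Timp1 below.

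Col1a2 and Col3a1 varied together from array to array more closely than most of the 45 pairs of these genes, and for that reason the DNA just before both genes is shown. Each line gives the 200 bases that end 1 base before the annotated gene start in the RefSeq table (GRCm38.p6), read 5′ to 3′ on the plus strand at chr6:4505418-4505617 for Col1a2 and chr1:45311338-45311537 for Col3a1. Capitals mark a CCAAT box (CCAAT), a GC box (GGGCGG) or a TATA box (TATAAA), each searched on both strands.
Col1a2: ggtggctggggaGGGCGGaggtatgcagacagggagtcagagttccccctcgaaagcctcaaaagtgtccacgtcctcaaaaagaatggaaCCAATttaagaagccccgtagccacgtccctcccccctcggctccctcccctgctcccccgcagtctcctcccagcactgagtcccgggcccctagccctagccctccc
Col3a1: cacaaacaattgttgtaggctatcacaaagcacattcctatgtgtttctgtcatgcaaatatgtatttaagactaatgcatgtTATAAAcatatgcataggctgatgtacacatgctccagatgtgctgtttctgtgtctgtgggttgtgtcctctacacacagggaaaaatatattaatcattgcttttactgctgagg
The Col1a2 window holds a CCAAT match that starts 109 bases and a GC box that starts 188 bases before the end of the window, and no TATAAA. In the Col3a1 window there is 1 match, TATAAA, starting 117 bases before its end. Among all 32851 promoters in the table, 29.3% hold CCAAT, 31% hold GGGCGG and 9.96% hold TATAAA in a window of the same length, so none of these letters is rare, and a match is no evidence of binding.

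Both genes together had a Pearson r of 0.87 over the 12 arrays (permutation p = 3e-05, adjusted p = 0.00135 over 45 pairs). Spearman rho was also 0.87 (permutation p = 0.00048, adjusted p = 0.0108). With the arrays farthest from the Col1a2 median left out, replicate 1 of the high-fat group and replicate 3 of chow, r was 0.91, and with each group centred on its own mean it was 0.89. The arrays share one normalization.

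Col5a2 encodes a chain of type V collagen, a minor fibrillar collagen that nucleates and limits the width of type I fibrils; its gene lies 24.6 kb from Col3a1. Its mean was highest under the high fat diet, though without passing the test. Its level was 6.02, 5.93 and 5.80 in HDAC6 knockout livers, 5.66, 6.13 and 5.81 in HDAC9 knockout livers, 5.89, 6.88 and 6.58 in high-fat livers and 5.76, 5.86 and 6.07 in chow livers. High-fat replicates 2 and 3 are the 2 highest of the series, whereas replicate 1 sits inside the chow range. The difference of high-fat from chow was 0.55 (SE 0.203, 95% interval 0.12 to 0.99, limma adjusted p = 0.429). It was 0.83 without replicate 1 and 0.34 without replicate 2, both also without passing. A second, dimmer probe set read 4.18, 4.38 and 4.23 in high-fat livers against 3.59, 3.96 and 3.90 in chow livers, with no overlap (difference 0.45, adjusted p = 0.318). Of all genes, 7.02% had high-fat arrays all above the chow arrays. Against both knockout groups the first probe set was higher too, by 0.53 against HDAC6 knockouts (adjusted p = 0.523) and 0.58 against HDAC9 knockouts (adjusted p = 0.38), comparisons that share the high-fat arrays.

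Of the network collagens, Col4a1 and Col4a2 form together the common type IV trimer of vessel basement membranes. Their genes lie head to head on chromosome 8, with annotated spans that overlap by 85 bases. Col4a1 was at 8.40, 8.29 and 8.22 in HDAC6 knockout livers, 8.15, 8.20 and 8.43 in HDAC9 knockout livers, 7.65, 8.57 and 8.24 in high-fat livers and 8.23, 8.14 and 8.40 in chow livers. For Col4a2 the values were 6.75, 6.52 and 6.66 in HDAC6 knockout livers, 6.49, 6.61 and 6.76 in HDAC9 knockout livers, 5.61, 6.78 and 6.68 in high-fat livers and 6.74, 6.45 and 6.74 in chow livers. In both genes high-fat replicate 1 is the lowest array and high-fat replicate 2 the highest, so that group spans the whole range of the series. In the knockouts the differences from chow were 0.04 and 0.00 for Col4a1 (SE 0.178) and 0.00 and -0.02 for Col4a2 (SE 0.229). High-fat livers differed from chow by -0.11 for Col4a1 and -0.28 for Col4a2, neither past the test. A second probe set of Col4a1 gave -0.38 for high-fat livers, with 6.69, 7.55 and 7.42 in high-fat against 7.62, 7.58 and 7.61 in chow livers. The arrays did not overlap, as for 7.71% of all genes in that direction, and the difference did not pass (adjusted p = 0.585). On that probe set the HDAC6 knockouts differed from chow by -0.19, with 7.47, 7.46 and 7.32 all below the chow arrays, as for 5.31% of all genes, and the HDAC9 knockouts by -0.11 (adjusted p = 0.919 and 0.944).

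The head-to-head pair had the highest correlation of the 45 pairs, with a Pearson r of 0.92 (permutation p = 9e-05, adjusted p = 0.00203). Its Spearman rho was 0.92 (permutation p = 0.00015, adjusted p = 0.00675). Without high-fat replicates 1 and 2, the arrays farthest from the Col4a1 median, r was 0.75. Only these 2 of the 45 pairs had an adjusted p under 0.05, and 29 of the 45 correlations were positive. Col1a2 with Col4a2 shows how far 1 array can carry such a value: r was 0.86 on 12 arrays and 0.34 without high-fat replicate 1.

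Col4a5 is a chain of the alpha-3, alpha-4, alpha-5 network of kidney and other specialised basement membranes, and its loss causes Alport syndrome in humans. It lies on the X chromosome, 1.27 kb from Col4a6. The 200 bases before its annotated start, chrX:141475170-141475369 on the plus strand, are printed because it is the one member with a change that passed the test. Capitals mark a CCAAT box, the only one of the motifs above that occurs there, 147 bases before the end of the window.
Col4a5: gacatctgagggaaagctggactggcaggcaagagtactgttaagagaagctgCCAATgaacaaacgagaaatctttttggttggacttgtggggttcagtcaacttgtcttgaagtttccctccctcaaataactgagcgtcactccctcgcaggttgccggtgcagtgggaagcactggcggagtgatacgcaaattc
Its level was 4.19, 4.44 and 4.65 in high-fat livers, against 5.51, 5.27 and 5.13 in HDAC6 knockout livers, with 4.99, 4.56 and 4.69 in HDAC9 knockout livers and 4.71, 4.97 and 5.12 in chow livers. Every HDAC6 knockout array lies above every other array of the series, and high-fat replicates 1 and 2 are the 2 lowest. The high-fat group averaged 4.43 ± 0.231 and the HDAC6 knockout group 5.30 ± 0.190 (SD, n = 3 each), so Col4a5 fell by 0.87 on the log2 scale in high-fat livers (SE 0.157, 95% interval -1.21 to -0.54, limma adjusted p = 0.0434). Of all genes, 0.0565% passed as lower in that comparison.

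The call is a narrow one. Of 14 other settings that could be run it held in 7, with adjusted p between 0.0363 and 0.225. Among others, it was lost with the mean of all probe sets (adjusted p = 0.0651) and with every probe set tested on its own (0.061). It was also lost without HDAC6 knockout replicate 1 or 2 (0.144 and 0.14) and without high-fat replicate 1 or 2 (0.225 and 0.142). Where every probe set was tested on its own, the one of smallest p stood for Col4a5. On that basis the difference was never smaller than 0.68 in size. A second, dimmer probe set of Col4a5 read 3.35, 3.46 and 3.44 in high-fat livers against 3.56, 4.05 and 4.12 in HDAC6 knockout livers, without overlap. Its difference of -0.49 did not pass (adjusted p = 0.621), and 6.54% of all genes had high-fat arrays all below those of the HDAC6 knockouts. Both probe sets are dim. The 23 genes that a liver should lack, described with Timp1 below, had an upper quartile of 4.22 and reached 6.93.

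Set in order, Col4a5 averaged 5.30 in HDAC6 knockout, 4.93 in chow, 4.75 in HDAC9 knockout and 4.43 in high-fat livers. No neighbours in that order differed by the test: HDAC6 knockout minus chow was 0.37 (SE 0.157, adjusted p = 0.838), HDAC9 knockout minus chow was -0.19 (adjusted p = 0.893) and high-fat minus HDAC9 knockout was -0.32 (adjusted p = 0.66). High-fat minus chow was -0.51 (adjusted p = 0.314) and HDAC9 minus HDAC6 knockout was -0.56 (adjusted p = 1). All HDAC6 knockout arrays lay above the chow arrays, as for 4.83% of all genes. All high-fat arrays lay below the chow arrays, as for 7.71% of all genes, and all HDAC9 knockout arrays below the HDAC6 knockout arrays, as for 4.71%. Col4a6, looked up after the Col4a5 values were known because it is the neighbouring gene, lay between 4.38 and 4.74 on all 12 arrays, with a high-fat minus HDAC6 knockout difference of -0.03 (SE 0.114, adjusted p = 0.979).

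**Figure D2:**
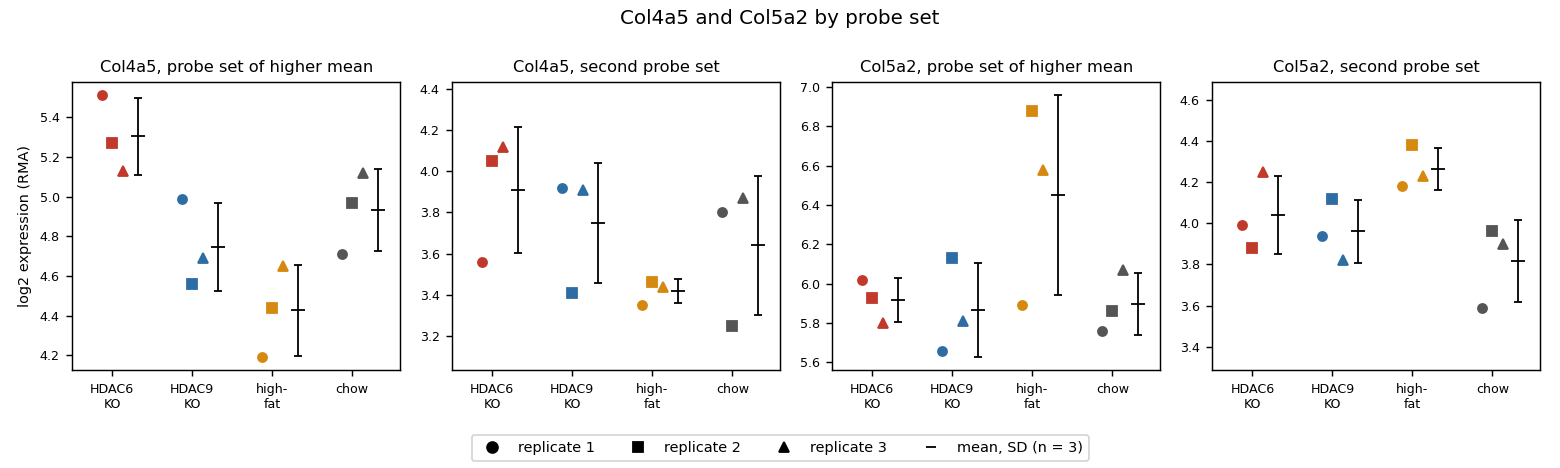
Both probe sets of Col4a5 and of Col5a2 on each array (y axis, log2 values), by group from HDAC6 knockout on the left to chow on the right. Points are arrays and bars are means. Col4a5 is lowest in high-fat livers on both probe sets and Col5a2 highest, while only the brighter Col4a5 probe set passed the test, against HDAC6 knockouts.

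The small leucine-rich proteoglycans bind collagen fibrils and set their spacing. Dcn (decorin, chromosome 10), which also binds transforming growth factor beta, was the steadiest of the 10 genes. It read 11.33, 11.40 and 11.21 in HDAC6 knockout livers, 11.50, 11.25 and 11.28 in HDAC9 knockout livers, 11.28, 11.24 and 11.37 in high-fat livers and 11.45, 11.30 and 11.31 in chow livers, a range of 0.29 over all arrays. The differences from chow were -0.04, -0.01 and -0.05, with 95% intervals that reach no lower than -0.25 and no higher than 0.18.

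Lum (lumican), 47.3 kb from Dcn, was at 8.44, 8.40 and 7.80 in HDAC6 knockout livers, 8.21, 8.27 and 8.19 in HDAC9 knockout livers, 8.11, 8.19 and 8.36 in high-fat livers and 8.59, 8.22 and 8.48 in chow livers. Chow had the highest mean, and its lowest array overlaps all 3 other groups. The differences from chow were alike in size, -0.22, -0.21 and -0.21 (SE 0.154, adjusted p = 0.904, 0.875 and 0.754). In HDAC6 knockouts the value rests on replicate 3, without which it was -0.01.

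Timp1 (X chromosome) encodes a secreted inhibitor of matrix metalloproteinases and is one of the genes most readily induced in injured liver. It read 3.27, 3.77 and 4.22 in HDAC6 knockout livers, 3.58, 3.61 and 3.57 in HDAC9 knockout livers, 3.57, 3.52 and 3.66 in high-fat livers and 3.53, 3.43 and 3.42 in chow livers. HDAC6 knockouts hold both the lowest and the highest array. For scale, 23 genes of other tissues, picked after the data had been seen as genes a liver should lack, had a median of 3.33 and an upper quartile of 4.22, so the Timp1 signal was within the range of genes that should be silent. The differences from chow were 0.30, 0.13 and 0.12 (SE 0.167), none past the test. In HDAC6 knockouts the value was 0.06 without replicate 3 and 0.54 without replicate 1. All 3 HDAC9 knockout arrays exceeded all 3 chow arrays, as 5.39% of all genes did.

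**Figure D3:**
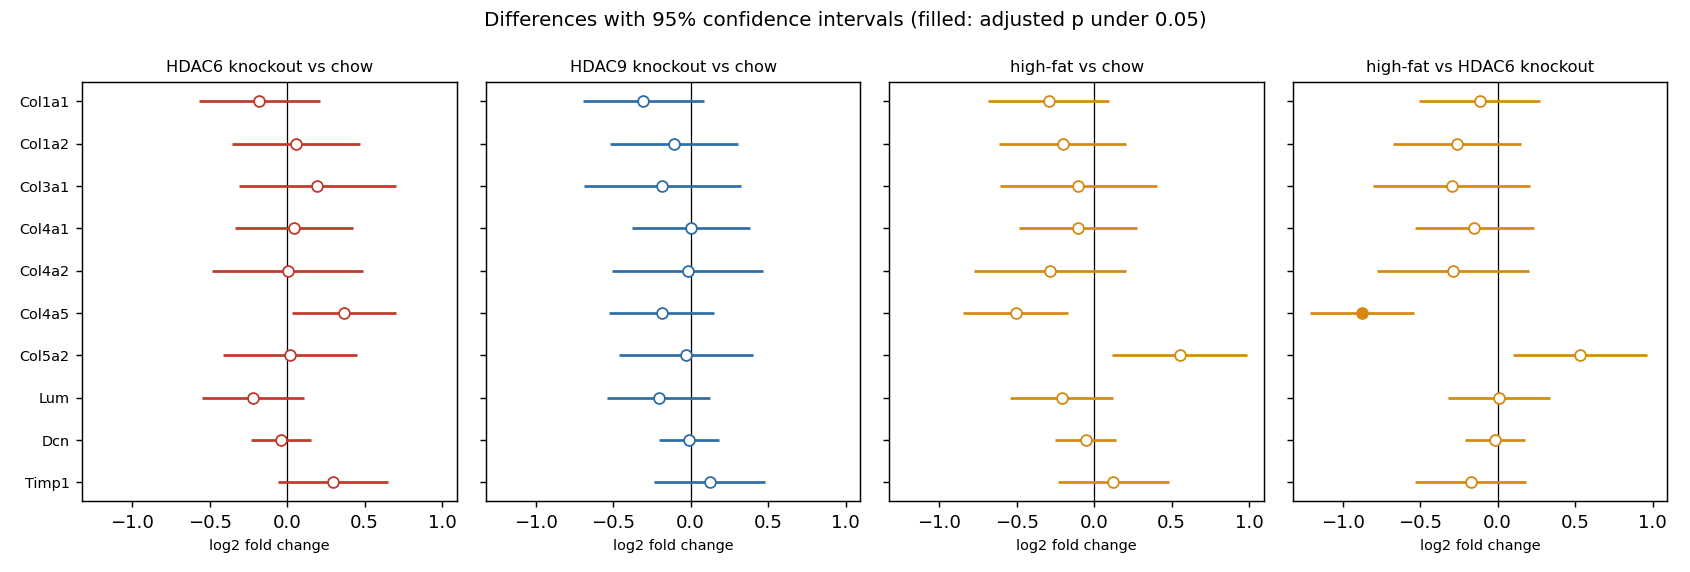
Difference between groups for each matrix gene (x axis, log2 units; points are limma estimates and bars 95% intervals), with genes down the page. Most intervals include 0. Col4a5 in high-fat against HDAC6 knockout livers, at -0.87, is the difference that passed the adjusted test.

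Taken by direction, 7 of 10 members had a higher mean in HDAC6 knockout than in chow livers (median difference 0.03), beside 45.6% of all genes (median -0.01). In HDAC9 knockout livers 2 of 10 were higher (median -0.07), beside 46% of all genes (median -0.01). In high-fat livers 2 of 10 were higher (median -0.15), beside 47.2% of all genes (median -0.01). The 3 comparisons share the chow arrays. Single arrays moved these counts. Without HDAC6 knockout replicate 1, 4 of 10 members were higher in the HDAC6 knockouts (median -0.02), and without chow replicate 1 or 2 it was 5 of 10 (median -0.01 in both). In the HDAC9 knockouts the count was 4 of 10 without HDAC9 knockout replicate 1 (median -0.08) and 5 of 10 without chow replicate 3 (median -0.01), and over all arrays left out in turn it ranged from 1 to 5. Without high-fat replicate 1, 6 of 10 were higher in high-fat livers (median 0.09).

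High-fat replicate 1 was the lowest of the 12 arrays for Col1a2, Col3a1, Col4a1, Col4a2 and Col4a5, 5 of the 10 members, and for 14.5% of all genes. It lay below the mean of the other 11 arrays by 0.78 for Col1a2, 0.71 for Col3a1, 0.65 for Col4a1, 1.04 for Col4a2 and 0.72 for Col4a5. Col1a1, Col5a2, Dcn, Lum and Timp1 were not lowest there. The same array was lowest for 5 of 22 other collagens, 12 of 36 other matrix genes, 6 of 22 collagen processing genes and 6 of 25 matrix proteases and inhibitors. It was lowest for 7 of 28 TGF-beta and PDGF genes, 7 of 17 endothelial markers and 2 of 23 stellate markers. It was also lowest for 4 of 10 hepatocyte markers, and highest for 6 of 14 Kupffer cell markers and for 14.3% of all genes. Without it the high-fat minus chow difference was 0.09 for Col1a2, 0.18 for Col3a1, 0.15 for Col4a1 and 0.09 for Col4a2, each of the opposite sign to the difference with all arrays, and none of them passed the test. For Col4a5 it was -0.39 without that array. Another array, HDAC6 knockout replicate 1, was the lowest of 12 for 7 of the 22 other collagens and for 14% of all genes.

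**Figure D4:**
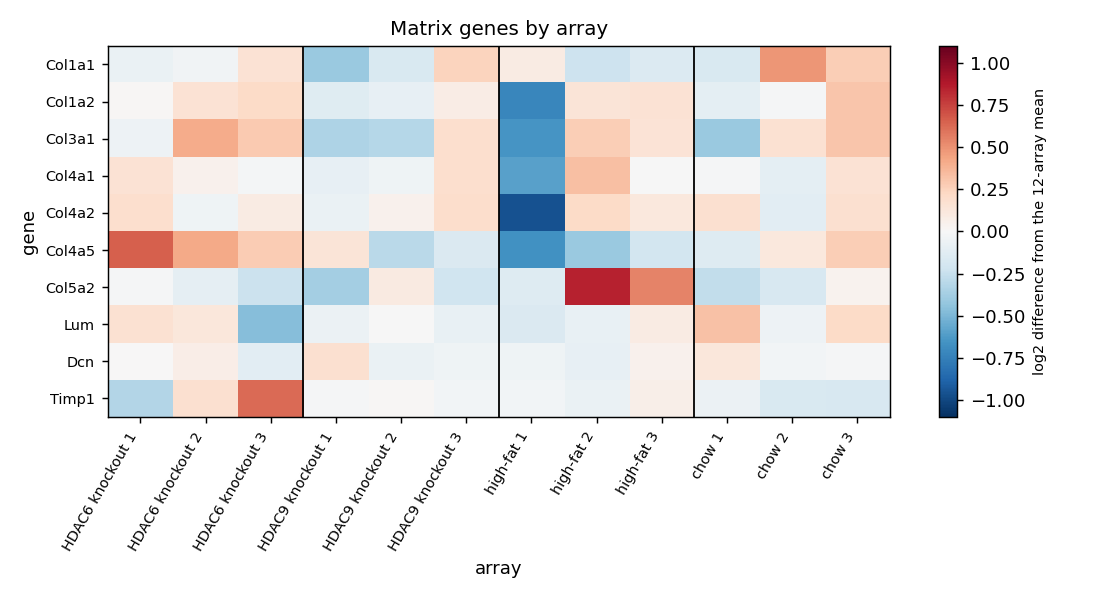
Deviation of each matrix gene from its mean over 12 arrays (colour, log2 units), with genes on the y axis and arrays ordered by group. Values for blocks of these genes, each the mean deviation of its genes, are not drawn. The fibrillar block is Col1a1, Col1a2, Col3a1 and Col5a2, the network block Col4a1 and Col4a2, and the proteoglycan block Lum and Dcn. Timp1 stands alone and Col4a5 is in no block. On high-fat replicate 1 the network block was at -0.78, the fibrillar block at -0.36 and the proteoglycan block at -0.10. Elsewhere the fibrillar block was at -0.31 on HDAC9 knockout replicate 1 and the proteoglycan block at -0.30 on HDAC6 knockout replicate 3.

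The collagen chains, enzymes and signals around the members gave no calls. Of 22 other collagen genes measured, 0 passed in any comparison, with medians of 0.00, -0.02 and -0.08 in HDAC6 knockout, HDAC9 knockout and high-fat livers against chow. The smallest p-values belonged to Col5a3 (0.38), Col8a1 (-0.32) and Col12a1 (0.32), all in HDAC6 knockouts against chow. Of 22 genes for folding, modifying and crosslinking collagen, 0 passed, and the medians were -0.05, 0.00 and -0.12. Plod1, a lysyl hydroxylase, averaged 7.53 ± 0.180 in high-fat and 7.96 ± 0.158 in chow livers (adjusted p = 0.319), and Crtap, part of the prolyl 3-hydroxylase complex, averaged 6.76 ± 0.152 in high-fat and 7.14 ± 0.0114 in chow livers (adjusted p = 0.3). Lox, the lysyl oxidase that crosslinks collagen, differed by -0.30 in HDAC6 knockouts (adjusted p = 0.816).

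Of 36 other matrix genes, 0 passed, with medians of -0.03, -0.03 and -0.07. The smallest p-values were for Postn (periostin) in HDAC9 knockouts, -0.42 against chow (adjusted p = 0.629), and for the proteoglycans Fmod and Ogn in high-fat livers, -0.59 and -0.44 (adjusted p = 0.387 for both). Of 25 matrix proteases and inhibitors, 0 passed, with medians of 0.02, 0.03 and 0.01. Mmp14, a membrane-bound collagenase, averaged 8.98 ± 0.05 in HDAC9 knockout and 8.59 ± 0.180 in chow livers (adjusted p = 0.703). Timp4 differed by 0.26 in HDAC9 knockouts and Adamts5 by -0.33 in HDAC6 knockouts, neither past the test.

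Among 28 genes of TGF-beta and PDGF signalling 0 passed, with medians of 0.10, 0.05 and 0.02. The inhibitory SMADs had the smallest p-values of this list. Smad7, which blocks the TGF-beta receptor, read 8.09, 8.33 and 8.37 in HDAC6 knockout livers and 7.87, 7.38 and 7.43 in chow livers, without overlap. Its difference was 0.70 (SE 0.16, adjusted p = 0.317), and 4.83% of all genes had HDAC6 knockout arrays all above the chow arrays. Smad6 read 6.76, 6.85 and 6.61 in HDAC6 knockout livers and 6.25, 6.36 and 6.08 in chow livers, also without overlap (difference 0.51, SE 0.121, adjusted p = 0.402). In the other groups Smad6 did not overlap chow either, at 6.78, 6.40 and 6.59 in HDAC9 knockout livers (difference 0.36, adjusted p = 0.654) and at 6.61, 6.73 and 6.61 in high-fat livers (difference 0.42, adjusted p = 0.259), so the chow arrays were the 3 lowest of the 12. All arrays above chow were seen for 5.39% of all genes in HDAC9 knockout and 7.02% in high-fat livers. The share of genes with chow lowest against every group was not counted. Smad7 differed from chow by 0.05 in HDAC9 knockout and 0.20 in high-fat livers. Pdgfc, a ligand, differed by -0.49 in high-fat livers (adjusted p = 0.374).

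Of 23 stellate and myofibroblast markers outside the members 0 passed, and the medians were 0.03, 0.03 and 0.05. Their summed level was 12.59 to 12.60 in HDAC6 knockout, 12.50 to 12.69 in HDAC9 knockout, 12.68 to 12.78 in high-fat and 12.56 to 12.72 in chow livers. Lrat, which esterifies retinol for storage in stellate cells, averaged 5.81 ± 0.420 in HDAC6 knockout, 5.10 ± 0.375 in HDAC9 knockout, 5.77 ± 0.0857 in high-fat and 5.07 ± 0.339 in chow livers. Its differences from chow of 0.74 in HDAC6 knockout and 0.70 in high-fat livers did not pass (adjusted p = 0.699 and 0.319). Cygb differed by 0.41 and Angptl6 by -0.40 in HDAC9 knockouts, neither past the test. Of 17 fibroblast, mesothelial and smooth muscle markers 0 passed. Gas6 averaged 9.30 ± 0.628 in HDAC9 knockout and 8.18 ± 0.258 in chow livers (adjusted p = 0.177), and Gpm6a and Actg2 differed by -0.46 and 0.28 in high-fat livers.

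**Figure D5:**
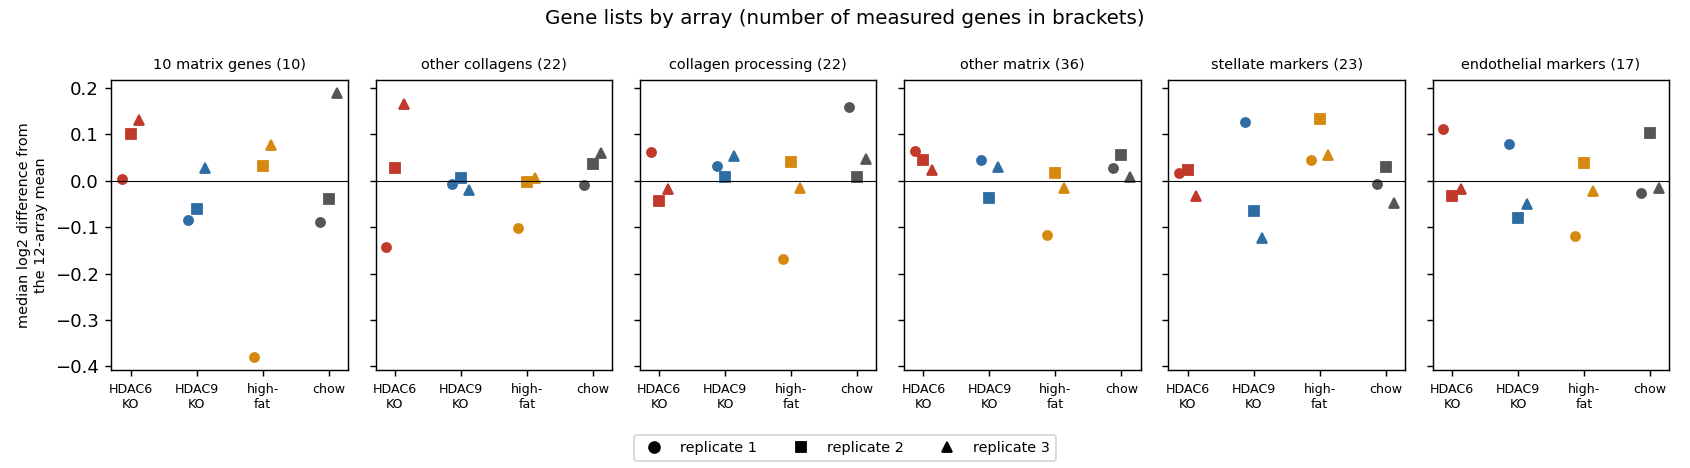
Median deviation of gene lists from their 12-array mean (y axis, log2 units), with a panel per list and groups from HDAC6 knockout to chow. The lists are the members, other collagens, collagen processing, other matrix, stellate markers and endothelial markers. Points are arrays. High-fat replicate 1 is low for the members, at -0.38.

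Markers of other liver cells did not pass either. Of 17 endothelial markers 0 passed, with Gpr182 at 0.35, Pecam1 at 0.57 and Ehd3 at -0.26 in HDAC9 knockouts against chow. Kupffer cell markers had medians of 0.22 in HDAC6 knockout, 0.30 in HDAC9 knockout and 0.35 in high-fat livers against chow, and 0 of 14 passed. These comparisons share the chow arrays. Chow replicate 3 was the lowest of 12 for 10 of the 14 (median deviation -0.41), and for 5.33% of all genes. Chow replicates 1 and 2 were at -0.18 and -0.005. Marco averaged 7.20 ± 0.231 in high-fat and 6.16 ± 0.363 in chow livers (adjusted p = 0.093), Cd68 differed by 0.60 in high-fat livers (adjusted p = 0.101) and Cd5l by 0.58 in HDAC9 knockouts (adjusted p = 0.229). The part of these cells in the matrix values was not tested. Of 6 bile duct, 8 adipocyte, 10 hepatocyte and 16 pancreas markers, 0 passed in any comparison. Krt7 and Sox9 differed by -0.20 and -0.49 in high-fat livers and Epcam by 0.23 in HDAC9 knockouts. Retn differed by 0.36 and Pparg by -0.38 in HDAC9 knockouts, and Lipe by 0.42 in HDAC6 knockouts. Apob and Tat differed by -0.21 and 0.51 in high-fat livers and Hnf4a by -0.20 in HDAC9 knockouts. The pancreas genes Cpa1 and Ctrb1 differed by 1.80 and 2.08 in HDAC9 knockouts, with SDs of 2.13 and 2.38 that come mostly from replicate 2. Cela1 differed by 1.5 in high-fat livers.

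The acute phase list, which covers the inflammatory setting in which Timp1 is induced, held the only calls among the lists. In HDAC9 knockouts 2 of 19 rose against chow, beside 0.0403% of all genes: Orm2 to 8.72 ± 0.663 against 7.17 ± 0.0939 in chow (difference 1.55, adjusted p = 0.0454) and Il1b to 6.42 ± 0.0458 against 5.58 ± 0.178 (0.84, adjusted p = 0.0377). Lrg1 differed by 0.88 there and did not pass. HDAC9 knockout replicate 2, the array with the most pancreas transcript, was the highest of 12 for 13 of the 19 genes, and for 6.9% of all genes. Without it 0 of all genes passed in that comparison by limma. The count was 0 also without HDAC9 knockout replicate 3 or chow replicate 1. In high-fat against HDAC9 knockout livers 1 of 19 fell, Orm2, beside 0.169% of all genes. Timp1 read 3.58, 3.61 and 3.57 on those HDAC9 knockout arrays, as given above.

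The genes whose pattern over the 12 arrays was most like each block of members were looked up among 6190 genes brighter than the median gene. For the fibrillar collagens they were Tmem184b (r = 0.92), B2m (0.88), Aida (0.88), Enox2 (0.85) and Qk (0.84), none of them a matrix gene. For Col4a1 and Col4a2 they were Rnpepl1 (0.94), Nisch (0.93), Alg9 (0.92), Agrn (0.92), which encodes the basement membrane proteoglycan agrin, and Aco1 (0.91). Without high-fat replicate 1 those 5 values were 0.55, 0.82, 0.53, 0.56 and 0.50. For Lum and Dcn the nearest were Letmd1 (0.84), Lrrc57 (0.83), Tars2 (0.83), Gopc (0.82) and Plrg1 (0.80). For Timp1 they were Dpf3 (0.90), Gatd3a (0.86), Sphk2 (0.86), Lce1h (0.83) and Inpp5j (0.83), with Spearman rho between 0.50 and 0.73. These are the highest of 6190 correlations per block over 12 arrays, and carry no test. Col4a5 was in no block and was not looked up.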

How the data were processed

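Total RNA of 12 whole-liver samples was labelled with biotin from 100 ng and hybridised to Affymetrix Mouse430A arrays, per the labels' protocols. The deposited values are log2 intensities from robust multi-array averaging (RMA), per the submitters' processing notes; the RMA software and its version are not given in the sources used here. They were used as deposited.

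Probe sets were named from the platform annotation: 20380 of 22626 have 1 symbol, 691 several and 1555 none. Each gene was represented by the brightest of its 1-symbol probe sets (by mean), which left 12393 genes with no filter on low values. Differences between groups were fitted with limma 3.58.1 in R 4.3.3 (4 group means, mean-variance trend, two-sided, Benjamini-Hochberg over all genes, threshold 0.05), and the procedure was tested on simulated data. The smallest p an exact test of 3 against 3 arrays could give is 0.1, so no such test was used. Correlations between members have permutation p-values from 100000 permutations.

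Every member and each probe set of a member is named. From each other list the 3 genes of smallest p over the chow comparisons are named, with any gene called. The members and lists were chosen with earlier results of these data known. Replicate numbers were checked for pairing: deviations of same-numbered arrays correlated at -0.15 to 0.15, with 2 of 18 pairs above 0.1, so they were not treated as pairs. Alternatives are described in the closing section. Promoter sequences are from RefSeq (GRCm38.p6), where 6 of 10 members had an entry.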

Additional observations from a re-analysis of the deposited data

How the results depend on the processing

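The differences of the members kept their standing in nearly all of 876 recomputed values. Of these, 862 stayed on the same side of the test, and where no call was made also within the spread between replicates. Without a call, 7 moved by more than that spread. The one call, Col4a5 in high-fat against HDAC6 knockout livers, was lost in 7. The 7 values in which it held were not checked against the spread. The sign changed in 87 of the 876, of which 6 were of differences larger than 0.2. Where every probe set was tested on its own, the one of smallest p stood for each gene. In high-fat against HDAC6 knockout livers the count of members called was 1, and 0 with the mean of all probe sets, every probe set, the replicate block, an adjusted p under 0.01 or genes under the 50th percentile of mean expression removed; leaving out 1 array at a time it was 0 to 1. In all other comparisons, and in the F test, 0 members were called under every setting. The percentile filter removed Col1a1, Col4a5, Col5a2 and Timp1 before testing.

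Counts over all genes moved more. HDAC6 knockout against chow had 2 genes called, and 1 with only the groups compared, quantile normalization, median centring, the percentile filter, every probe set or adjusted p under 0.01, and 1 to 4 with 1 array left out. HDAC9 knockout against chow had 12, and 3 without the trend, 0 with only the groups compared, 5 with quantile normalization, 0 with the percentile filter, 7 with mean probe sets, 1 with every probe set and 0 at adjusted p under 0.01, and 0 to 13 with 1 array left out. High-fat against chow had 36, and 22 with mean probe sets, 24 with shared-probe suffixes removed and 12 at adjusted p under 0.01, and 13 to 33 with 1 array left out. HDAC9 against HDAC6 knockout had 1, and 2 with only the groups compared, mean probe sets or the replicate block, and 1 to 4 with 1 array left out. High-fat against HDAC6 knockout had 18, and 56 with only the groups compared, 31 with shared-probe suffixes removed and 11 at adjusted p under 0.01, and 8 to 24 with 1 array left out. High-fat against HDAC9 knockout had 54, and 34 with the percentile filter, 29 with mean probe sets and 7 at adjusted p under 0.01, and 9 to 97 with 1 array left out. The F test had 41, and 21 with the percentile filter, 64 with the replicate block and 16 at adjusted p under 0.01, and 15 to 70 with 1 array left out. The cause was not tested.

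With the replicate block, Col4a5 in high-fat against HDAC6 knockout livers had an adjusted p of 0.061. The array number, 3 per group, and dim probe sets limit what could be seen. Timp1 was near the level of genes absent from liver, whose upper quartile was 4.22. Near it too was Col4a5 in high-fat livers (4.19, 4.44 and 4.65). The same holds for the second probe sets of Col1a1 (3.92 to 4.36), Col3a1 (3.97 to 4.63), Col4a5 (3.25 to 4.12) and Col5a2 (3.59 to 4.38).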
